A study of Mus musculus with 12 samples.

Results

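The genes described here are 50 mouse chaperone and co-chaperone genes, of 48709 genes counted, whose products work mainly in the cytosol and in mitochondria. They were taken from a fixed list of names and sorted by family into 12 Hsp70 and Hsp110 genes, 2 Hsp90 genes, 3 small heat shock protein genes, 13 J-protein genes, 9 chaperonin genes, 5 Bag genes, 4 Hsp90 co-chaperone genes and 2 heat shock factor genes. All 50 were found by symbol, and all 50 were among the 18847 genes that passed the filter on low counts. RNA was sequenced from primary hippocampal cultures of CD1 mice, prepared at embryonic day 17 from pooled embryos, in which neurons grow together with glial cells. At day 10 in vitro the cultures received lipid nanoparticles with apolipoprotein E4, and 48 h later, at day 12, RNA was collected. In the mimic group the particles carried a synthetic miR-148a-3p, and in the control group a negative control oligonucleotide, with 6 samples in each group and the labels name no allele or transgene. The comparison asks which transcripts differ when the level of this microRNA is raised. No source says that the 6 samples of a group came from separate preparations, so the p-values below measure the spread between these samples.

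Chaperones bind proteins that are unfolded, newly made or damaged and help them reach or keep their folded state. Hsp70 proteins clamp onto short stretches of a client under the control of J-proteins, which deliver clients and start ATP hydrolysis, and of nucleotide exchange factors such as the Hsp110 and Bag proteins, which let the client go. Hsp90 acts later on kinases and steroid receptors, chaperonins enclose a client in a barrel, and small heat shock proteins hold unfolded proteins without ATP. Neurons do not dilute damaged proteins by dividing, and chaperones are widely studied in them for this reason.

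The oligonucleotides given to the cultures are shown because their seed, bases 2 to 8 printed in capitals, sets which transcripts can be bound directly. Sequences were read from the reagent list of the study, and that of the mimic was identical to the mature miR-148a-3p of RefSeq.
mimic: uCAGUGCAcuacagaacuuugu
negative control: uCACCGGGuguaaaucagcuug
The series text calls the control a siRNA, so values for the negative control seed hold only if the listed oligonucleotide is the one that was used.

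Library totals ran from 20018234 to 37149112 counts and did not differ between the groups beyond the spread of the libraries (two-sided exact permutation p = 0.515). Control replicates 1 and 2 were the shallowest, and many chaperone genes stood apart in replicate 1, as described further on. The cultures expressed the 8 neuronal markers, with a summed level of 5241 to 5664 CPM (counts scaled to a common library size) in control and 5322 to 5503 in mimic, of which Gad2 was called higher and Tubb3 lower. Of 8 astrocyte markers 6 were called higher and Gfap lower (summed 4677 to 5172 CPM in control, 5643 to 6110 in mimic). Oligodendrocyte lineage markers were called higher for 5 of 8 and lower for 1 (393 to 681 CPM in control, 768 to 963 in mimic), and 5 of 5 genes of dividing cells were higher (151 to 188 CPM in control, 321 to 342 in mimic). Of 7 mesenchymal and mural markers 2 were lower (168 to 236 CPM in control, 81.1 to 170 in mimic). Of 5 tested endothelial markers 2 were lower (46.6 to 68.7 CPM in control, 28.3 to 50.8 in mimic), with Cldn5 at 0 counts in every control library, and 0 of 6 microglial markers were called by edgeR, 1 of them at an unadjusted p under 0.05, at a summed 8.16 to 10.2 CPM in control and 7.42 to 14.7 in mimic. The part of these markers in the results below was not tested.

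Levels per length set the chaperone genes apart from each other far more than the treatment did. RPKM here is CPM divided by the length of all merged exons in kilobases. Hsp90ab1, the constitutive cytosolic Hsp90, was the most abundant member, with 636 ± 40.4 RPKM in control (SD, n = 6). It was followed by Cct2, a chaperonin subunit, with 108 ± 2.20 RPKM (SD, n = 6). Cct8, Bag1, Cct5 and Hspa4 came next with 90.3 ± 5.69, 88.7 ± 5.36, 86.3 ± 2.38 and 83.5 ± 4.48 RPKM (SD, n = 6 each), and in this order, each differed from the next by less than the larger of their SDs. Then came Dnajc5 with 77.3 ± 2.01, Stip1 with 74.6 ± 1.87, Dnaja2 with 62.8 ± 3.78, Hspa9 with 58.1 ± 1.03 and Dnajc6 with 56.4 ± 2.43 RPKM (SD, n = 6 each). These 11 members were over 50 RPKM, and all 11 were so as well when the length of the longest coding transcript was used, by which 21 members passed. The order depended on the length used. By the coding transcript Cct3 had 105 and Cct7 99.1 RPKM in control, above Bag1 at 88.7, against 32.7 and 35.7 RPKM by merged exons. The median member had 20.3 RPKM. At the low end were Hspa1a and Hspb1, the classical stress-inducible Hsp70 and small Hsp, with 0.709 ± 0.0668 and 0.542 ± 0.245 RPKM, and Hspa12b with 0.387 ± 0.0481 RPKM (SD, n = 6 each).

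**Figure D1:**
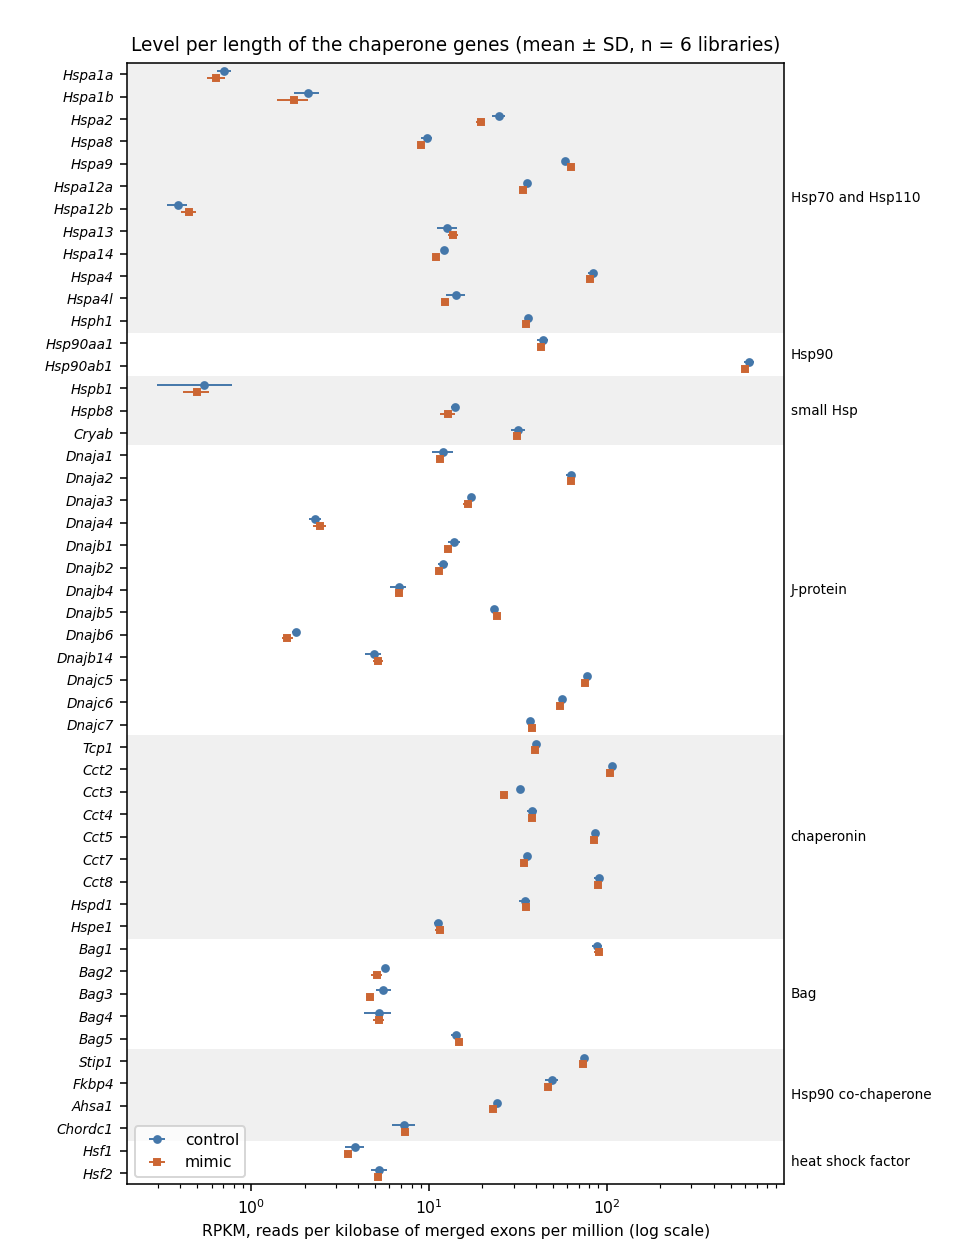
Level of each of the 50 chaperone genes in RPKM on a log axis, by family. Circles are the mean of the 6 control libraries and squares the mean of the 6 mimic libraries, with the SD as a bar. Members span from 0.387 RPKM for Hspa12b to 636 RPKM for Hsp90ab1, while the 2 groups lie close together for every member.

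The family as a whole changed little. Of the 50 members 8 passed an edgeR adjusted p of 0.05, which is 16% against 22.2% of all 18847 tested genes. Hspa9 was higher in mimic, which is 2% of the members against 11.5% of all genes called higher. Lower in mimic were Hspa2, Hspa14, Hspa4l, Dnajb6, Cct3, Bag2 and Bag3, which is 14% of the members against 10.7% of all genes called lower. In 4 members, or 8%, the groups did not overlap at all in CPM, against 13.3% of all genes. The share called was thus below that of all genes overall and for increases. For decreases it depended on the libraries used, with 13 members (26%, against 15.2% of all genes) without control replicates 1 and 2 together, and 4 members (8%) without control replicate 4 or without mimic replicate 1, 2 or 6. Of all genes 10.2%, 8.8%, 9.12% and 8.6% were called lower in these 4 fits. The median log2 fold change of mimic against control was -0.042 over the members and -0.012 over all tested genes. It was negative in 37 members (74%), against 53% of all genes. None of the members reached a change of 0.5 on the log2 scale in either direction.

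For most members the changes that did not pass were narrowly bounded. Among the 42 members that did not pass, log2 fold changes ran from -0.23 to 0.23. In 29 of these 42 the 95% interval of the log2 fold change lay within 0.2 on either side of 0, a change of at most 14.9% upward, and in 40 it lay within 0.5. Summed over the 50 members, the level was 8084 to 8204 CPM in control with a median of 8129, and 7787 to 7998 CPM in mimic with a median of 7881. The 2 ranges do not overlap. The largest part came from Hsp90ab1, with 1803 to 2114 CPM in control and 1748 to 1873 CPM in mimic, and without it the ranges overlap. As a share of all counts the sum over the 50 members is 0.806% to 0.824% in control and 0.774% to 0.804% in mimic. It is given as a description and was not tested. In bulk RNA, fewer cells of a type and less RNA per cell cannot be told apart.

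**Figure D2:**
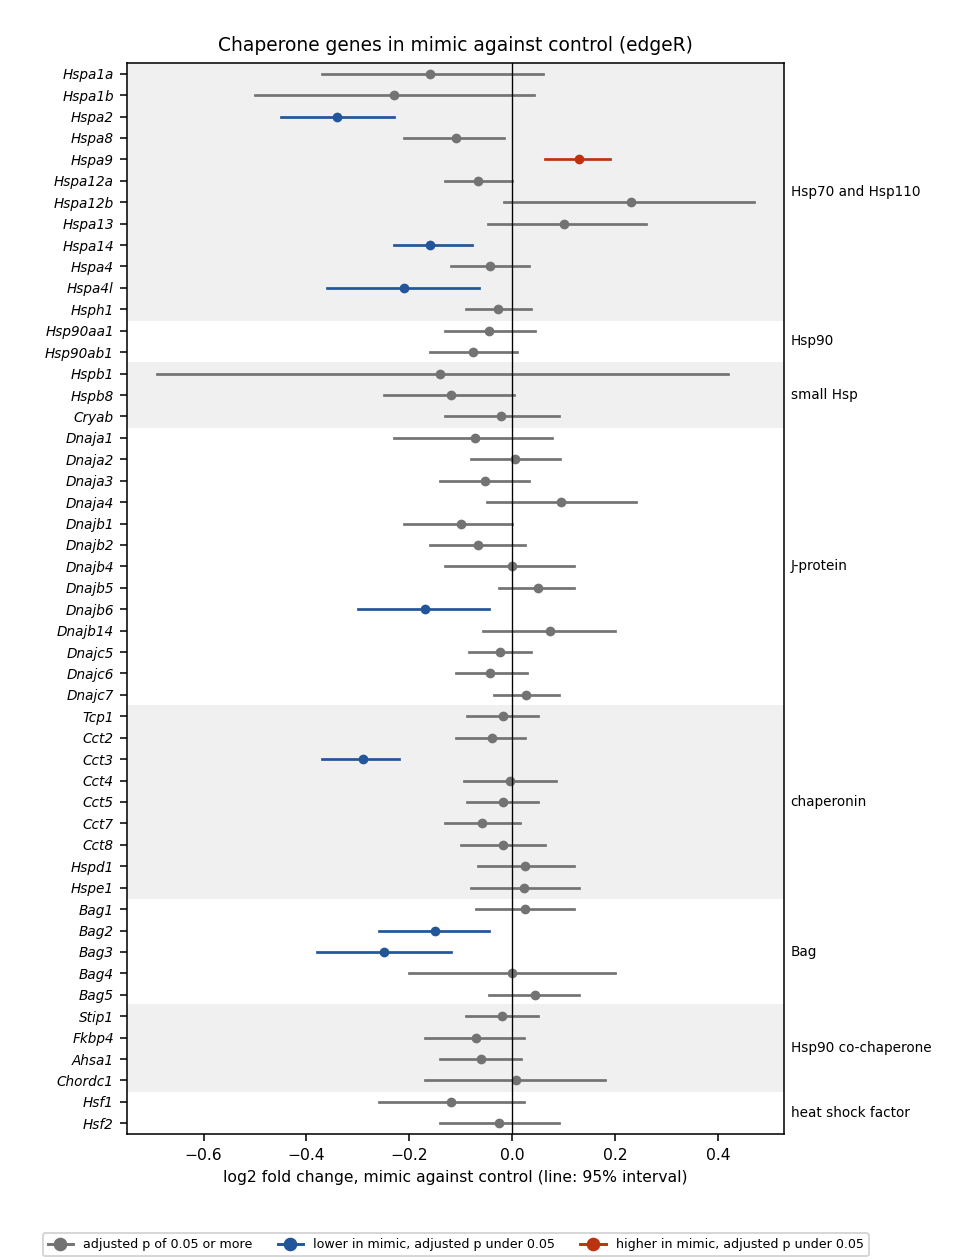
log2 fold change of each of the 50 chaperone genes, mimic against control, with its 95% interval as a line (edgeR, n = 6 libraries in each group). Of the 8 coloured members Hspa9 is on the right and 7 are on the left of 0, and no point lies beyond 0.5 on either side.

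The Hsp70 and Hsp110 genes held 4 of the 8 called members, 1 higher and 3 lower, with a median log2 fold change of -0.09 over the 12 genes. This is 33.3% of the class called, against 22.2% of all tested genes. Hspa2, an Hsp70 best known from germ cells that is also made in brain, had the largest change (chr12:76404176-76406938 on mm10, plus strand). It ran from 61.1 to 76 CPM in control with a median of 63.7, and from 47.7 to 55.6 CPM in mimic with a median of 52.1. No mimic library reached the lowest control library, and Hspa2 fell by 21.1%, or -0.34 on the log2 scale (edgeR adjusted p = 0.000111, SE 0.052). The highest control value was that of control replicate 1, and without control replicates 1 and 2 the log2 fold change was -0.28.

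Hspa9, the Hsp70 of the mitochondrial matrix that pulls imported proteins through the inner membrane, was the member that moved the other way (chr18:34937414-34954357, minus strand). Its 6 control libraries were tightly grouped at 247 to 258 CPM with a median of 249. Its mimic libraries lay above all of them, at 265 to 280 CPM with a median of 274. Hspa9 rose by 9.06%, or 0.13 on the log2 scale (edgeR adjusted p = 0.0046, SE 0.029). Its mitochondrial partners Hspd1, Hspe1 and Dnaja3 had log2 fold changes of 0.025, 0.023 and -0.053 and did not pass (edgeR adjusted p = 0.745, 0.807 and 0.405).

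Hspa14, an Hsp70 that sits on ribosomes near newly made chains, was lower in mimic by a small and even amount (chr2:3488850-3512814, minus strand). Control libraries held 46.8 to 51.5 CPM with a median of 49.5 and mimic libraries 42.8 to 45.8 CPM with a median of 44.9, so the groups did not overlap. It fell by 10.2%, or -0.16 on the log2 scale (edgeR adjusted p = 0.00441, SE 0.036). Of its 50-base stretches 15.6% also occur in Gm45902, a gene model that overlaps it on the same strand and had a log2 fold change of -0.20 (edgeR adjusted p = 0.113), so reads of these models cannot be fully separated.

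Hspa4l, an Hsp110-type exchange factor, overlapped between the groups (chr3:40744495-40796103, plus strand). It ran from 133 to 187 CPM in control with a median of 176, and from 136 to 158 CPM in mimic with a median of 144. The lowest control values were 133 CPM in replicate 1 and 154 CPM in replicate 2, while the other 4 control libraries were at 175 to 187 CPM and above every mimic library. The log2 fold change was -0.21 (edgeR adjusted p = 0.0367, SE 0.069), and -0.31 (edgeR adjusted p = 2.26e-07) without control replicates 1 and 2. Leaving out any of control replicates 3, 4, 5 and 6 or of mimic replicates 1, 2, 4, 5 and 6 ended the call, with edgeR adjusted p-values of up to 0.0828. So did testing without the filter on low counts (0.129) and limma on the normalized table (adjusted p = 0.0521). The log2 fold change of Hspa4l was -0.27 to -0.18 over the fits without 1 library. It was -0.21 without the filter and -0.20 on the normalized table.

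Hspa4, the closest relative of Hspa4l and the most abundant gene of this family per length, ran from 428 to 481 CPM in control with a median of 474 and from 440 to 455 CPM in mimic with a median of 449. Its log2 fold change was -0.043 (edgeR adjusted p = 0.448, SE 0.036), and -0.092 without control replicates 1 and 2, where it was called lower (edgeR adjusted p = 0.00327). The remaining Hsp70 genes did not pass with all libraries. They were Hspa1a and Hspa1b, the stress-inducible pair, with log2 fold changes of -0.16 and -0.23, the constitutive Hspa8 with -0.11, the distant relatives Hspa12a and Hspa12b with -0.067 and 0.23, the microsomal Hspa13 with 0.10 and the Hsp110 gene Hsph1 with -0.027. Hspa1b was at 4.93 to 7.57 CPM in control and 3.51 to 6.29 CPM in mimic, and Hspa12b at 1.13 to 1.67 and 1.42 to 1.85 CPM, so these larger fold changes rest on low levels. Hspa8 and Hspa12a were lower at an unadjusted edgeR p of 0.0237 and 0.0479 (edgeR adjusted p = 0.0884 and 0.148).

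**Figure D3:**
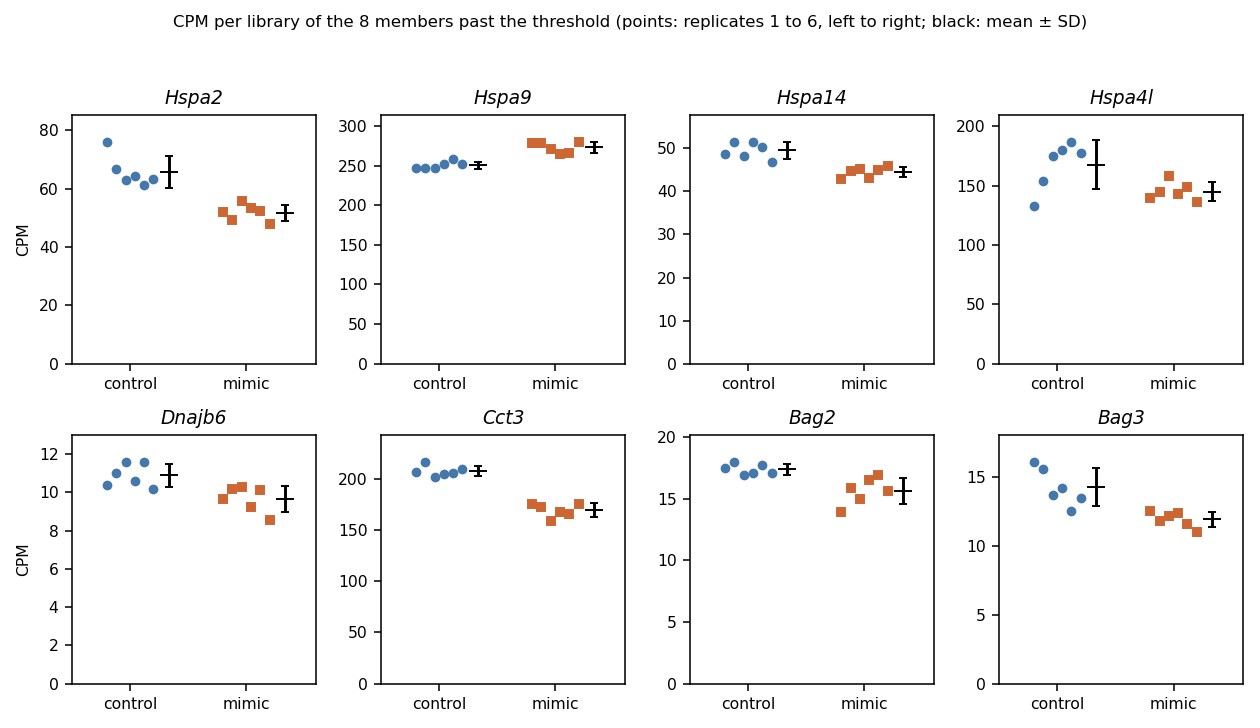
CPM in each library of the 8 members with an edgeR adjusted p under 0.05, from 0 upward, with points for the 6 replicates of each group and the mean ± SD in black. The groups do not overlap for Hspa2, Hspa9, Hspa14 and Cct3, while Hspa4l, Dnajb6, Bag2 and Bag3 have libraries that overlap or touch.

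Of the 9 chaperonin genes Cct3 was called lower, which is 11.1% of them against 10.7% of all tested genes called lower, and the median log2 fold change of the class was -0.019. The cytosolic chaperonin TRiC, which folds actin and tubulin, is a double ring in which each ring holds the same 8 subunits. Cct3, the gamma subunit, ran from 202 to 217 CPM in control with a median of 206 and from 159 to 176 CPM in mimic with a median of 171 (chr3:88297116-88321767, plus strand). Every mimic library was below every control library, and Cct3 fell by 18.4%, or -0.29 on the log2 scale (edgeR adjusted p = 5.80e-06, SE 0.034). The other subunits did not pass. Tcp1, Cct2, Cct4, Cct5, Cct7 and Cct8 had log2 fold changes of -0.019, -0.04, -0.0047, -0.019, -0.058 and -0.019, and Cct6a, the subunit that is no member of the list, had -0.048 (edgeR adjusted p = 0.405). Cct2, the most abundant chaperonin gene per length, ran from 267 to 282 CPM in control with a median of 277 and from 258 to 282 CPM in mimic with a median of 269 (log2 fold change -0.04, SE 0.031, edgeR adjusted p = 0.408).

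Relative to the other subunits the change in Cct3 was equally plain. Cct3 made up 10.5% to 11.3% of the summed CPM of the 8 subunits in control (median 10.8%), and 8.98% to 9.49% in mimic (median 9.26%), with no overlap. The shares of each of the other 7 subunits overlapped between the groups. This ratio does not depend on the library size used, and it was chosen after the values of Cct3 were seen. Only 2.13% of the 50-base stretches of Cct3 occur in another gene.

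**Figure D4:**
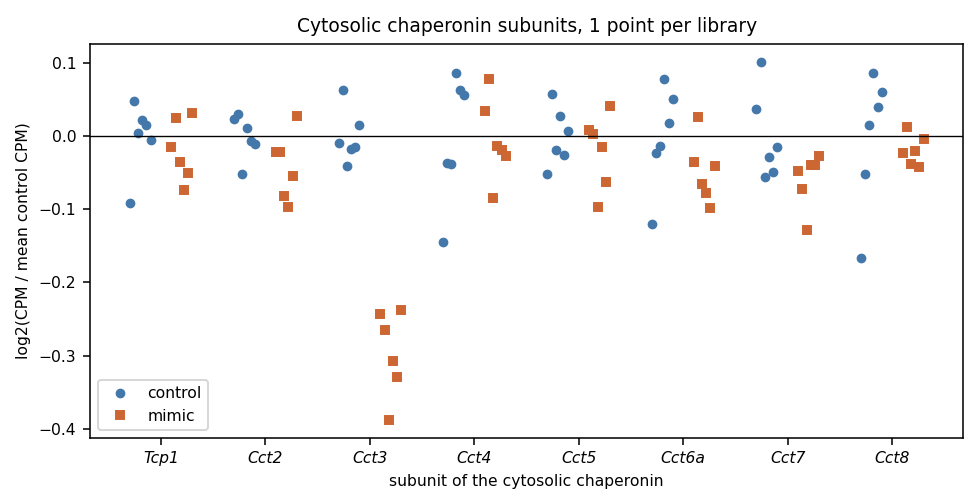
log2 ratio of the CPM in each library to the mean of the 6 control libraries, for the 8 subunits of the cytosolic chaperonin, with 1 circle for each control and 1 square for each mimic library. The 6 mimic squares of Cct3 lie below all of its control circles, while circles and squares mix for the other 7 subunits.

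Among the 13 J-protein genes Dnajb6 was called, which is 7.69% of them against 22.2% of all tested genes, and the median log2 fold change was -0.024. Dnajb6, a J-protein known for keeping polyglutamine and other aggregation-prone proteins soluble, ran from 10.2 to 11.6 CPM in control with a median of 10.8 and from 8.54 to 10.3 CPM in mimic with a median of 9.91 (chr5:29735688-29818134, plus strand). The groups overlapped at their edges, and the log2 fold change was -0.17 (edgeR adjusted p = 0.0495, SE 0.060). The call stands at the threshold. It was lost without control replicate 2, 3, 4 or 5 or mimic replicate 1, 2, 4, 5 or 6, with an adjusted p of up to 0.114. It was also lost with RLE normalization (edgeR adjusted p = 0.0513), library totals alone (0.0546), no filter on low counts (0.11) and limma on the normalized table (adjusted p = 0.0519). Over all alternatives the log2 fold change of Dnajb6 stayed between -0.19 and -0.14. Dnajb6 also shares 42.8% of its 50-base stretches with other genes, so its level is uncertain.

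The most abundant J-protein gene per length was Dnajc5, which encodes the cysteine string protein of synaptic vesicles. It ran from 515 to 554 CPM in control with a median of 536 and from 516 to 535 CPM in mimic with a median of 530 (log2 fold change -0.024, SE 0.029, edgeR adjusted p = 0.62). The other 11 J-protein genes had log2 fold changes from -0.10 to 0.094. Among them were Dnajc6, or auxilin, which strips clathrin from vesicles, at -0.043, and Dnajb1, the main stress-inducible partner of Hsp70, at -0.10 (edgeR adjusted p = 0.418 and 0.154). Dnaja1, Dnaja2, Dnaja3 and Dnaja4 had -0.073, 0.0052, -0.053 and 0.094, and Dnajb2, Dnajb4, Dnajb5, Dnajb14 and Dnajc7 had -0.067, -0.0011, 0.05, 0.073 and 0.027 on the log2 scale.

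Of the 5 Bag genes, whose products release clients from Hsp70, Bag2 and Bag3 were called lower, which is 40% of a small class against 10.7% of all tested genes called lower. Bag3, which links Hsp70 and small Hsps to autophagy, ran from 12.5 to 16.1 CPM in control with a median of 14 and from 11 to 12.5 CPM in mimic with a median of 12 (chr7:128523616-128546981, plus strand). The highest mimic library met the lowest control library at 12.5 CPM. Bag3 fell by 16%, or -0.25 on the log2 scale (edgeR adjusted p = 0.00765, SE 0.063). Control replicates 1 and 2 held its highest values, 16.1 and 15.6 CPM, and without both the log2 fold change was -0.17 (edgeR adjusted p = 0.0193).

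Bag2, which restrains the ubiquitin ligase that works with Hsp70, ran from 16.9 to 18 CPM in control with a median of 17.3 and from 13.9 to 16.9 CPM in mimic with a median of 15.8 (chr1:33745484-33757795, minus strand). The control libraries were close together and the mimic libraries spread downward from them, with a difference of -0.15 on the log2 scale (edgeR adjusted p = 0.0392, SE 0.050). The call was lost without control replicate 2, 4, 5 or 6 or mimic replicate 1, 2, 3 or 6, with an adjusted p of up to 0.0975. It was also lost without the filter on low counts (edgeR adjusted p = 0.0932), with library totals alone (0.0503) and without control replicates 1 and 2 together (0.0537). In these fits and those without 1 library the log2 fold change stayed between -0.17 and -0.12. Bag1, the most abundant gene of this family, ran from 113 to 129 CPM in control with a median of 117 and from 112 to 129 CPM in mimic with a median of 121 (log2 fold change 0.025, SE 0.045, edgeR adjusted p = 0.764). Bag4 and Bag5 had log2 fold changes of -0.0015 and 0.044.

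Neither Hsp90 gene was called, nor was any of their 4 co-chaperone genes (0 of 6 by edgeR and by DESeq2, with 0 at an unadjusted edgeR p under 0.05). Of all tested genes 22.2% were called by edgeR, so 0 calls among so few genes says little about these classes. Hsp90ab1 ran from 1803 to 2114 CPM in control with a median of 1865 and from 1748 to 1873 CPM in mimic with a median of 1812, with a log2 fold change of -0.076 (95% interval -0.16 to 0.0083, SE 0.040, edgeR adjusted p = 0.202). Its highest values were 2114 and 1975 CPM in control replicates 1 and 2. Hsp90aa1, the inducible form, had a log2 fold change of -0.045 and was lowest in control replicate 1, with 152 CPM, so this replicate deviated in opposite directions for the 2 Hsp90 genes. Stip1, the adaptor that hands clients from Hsp70 to Hsp90, ran from 153 to 164 CPM in control with a median of 157 and from 148 to 164 CPM in mimic with a median of 155 (log2 fold change -0.02, SE 0.033, edgeR adjusted p = 0.731). Fkbp4, an immunophilin of steroid receptor complexes, ran from 129 to 158 CPM in control with a median of 133 and from 128 to 134 CPM in mimic with a median of 130 (log2 fold change -0.071, SE 0.045, edgeR adjusted p = 0.294). Ahsa1, which speeds the ATPase of Hsp90, and Chordc1 had log2 fold changes of -0.061 and 0.0065. Without control replicates 1 and 2, Hsp90aa1 was called lower at -0.091 (edgeR adjusted p = 0.0181), and Chordc1 turned to -0.11 and was called lower (edgeR adjusted p = 0.0448). In the same fit the decreases of Hsp90ab1, Fkbp4, Ahsa1 and Stip1 shrank to -0.023, -0.0085, -0.029 and -0.0041.

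The small heat shock protein genes and the heat shock factor genes did not pass either (0 of 3 and 0 of 2 by edgeR and by DESeq2, 0 at an unadjusted edgeR p under 0.05). With 22.2% of all tested genes called by edgeR, 0 calls in classes this small says little. Cryab, the alpha-B crystallin of glia and lens, ran from 43.8 to 54.3 CPM in control with a median of 45.3 and from 43.4 to 48.8 CPM in mimic with a median of 46.8 (log2 fold change -0.022, SE 0.053, edgeR adjusted p = 0.827). Hspb1 was hardly detected, at 0.202 to 0.823 CPM in control with a median of 0.584 and 0.387 to 0.598 CPM in mimic with a median of 0.521. Its log2 fold change of -0.14 (edgeR adjusted p = 0.778, SE 0.26) has a 95% interval from -0.69 to 0.42, so a change of moderate size was not detectable at this depth. Hspb8, the partner of Bag3, had a log2 fold change of -0.12 (95% interval -0.25 to 0.0035, edgeR adjusted p = 0.166). Hsf1, the main activator of the heat shock response, ran from 23.8 to 32.4 CPM in control with a median of 25.9 and from 23.2 to 26.9 CPM in mimic with a median of 25.1 (log2 fold change -0.12, SE 0.068, edgeR adjusted p = 0.237). Hsf2 ran from 42.9 to 55.4 CPM in control with a median of 51.5 and from 46.7 to 51.5 CPM in mimic with a median of 50.2 (log2 fold change -0.026, SE 0.056, edgeR adjusted p = 0.801). Without control replicates 1 and 2 the log2 fold change was -0.018 for Hsf1 and -0.10 for Hsf2 (edgeR adjusted p = 0.816 and 0.0602).

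Control replicate 1 stood apart from the other control libraries in many members. It was the lowest of the 6 control libraries in 18 members and the highest in another 18, which is 36% each, against 30.4% and 32.2% of all tested genes. Control replicate 2, the other shallow library, was the lowest in 7 members and the highest in 9, while among the deeper libraries replicate 5 was the lowest in 10 and replicate 4 the highest in 11. For Bag4 the level was 26.9 CPM in control replicate 1, 31.8 CPM in replicate 2 and 36.2 to 42.6 CPM in the others. For Fkbp4 it was 158 CPM in replicate 1, 140 CPM in replicate 2 and 129 to 133 CPM in the others, so the direction differed between members. Over the 50 members the deviation of each control library from the other 5 was ranked against the GC content of the longest coding transcript, with a Spearman rho of 0.72 and 0.74 for replicates 1 and 2 and of -0.24, -0.69, -0.78 and -0.59 for replicates 3 to 6. Over 15165 tested genes with such a transcript the values were 0.63, 0.52, -0.071, -0.58, -0.6 and -0.52. The sign was thus positive for replicates 1 and 2 and negative for the other 4. Since each library was set against the other 5, the 6 deviations of a gene cancel out. Opposite signs in some libraries therefore follow in part from the signs in the others. With the length of the longest coding transcript the rho over the members was -0.26 and -0.68 for replicates 1 and 2. For replicates 3 to 6 it was 0.44, 0.39, 0.3 and 0.36. Over all tested genes with such a transcript it was -0.17, -0.24, 0.17, 0.09, 0.18 and 0.17 for replicates 1 to 6. These correlations are across genes of the same libraries, which are not independent. The median coefficient of variation of the members was 6.17% in control and 3.94% in mimic.

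Without control replicates 1 and 2, the shallow libraries, the picture for the decreases changed. Then 13 members, or 26%, were called lower, against 15.2% of all genes called lower in that fit, and Hspa9 stayed the only member called higher. Hspa12a, Hspa4, Hsp90aa1, Dnaja1, Dnajc6, Cct8 and Chordc1 passed in addition, with log2 fold changes of -0.093, -0.092, -0.091, -0.18, -0.068, -0.07 and -0.11, and Bag2 no longer passed (edgeR adjusted p = 0.0537). For Dnaja1, a general partner of Hsp70, the remaining control libraries were at 103 to 118 CPM, against 87.5 and 88 CPM in control replicates 1 and 2 and 94.4 to 106 CPM in mimic. The median log2 fold change of the members was -0.047 in that fit and -0.0098 over all genes. The rho of the log2 fold change with GC content was -0.36 over the members and -0.082 over all tested genes with a coding transcript with all libraries, and 0.17 and 0.19 without control replicates 1 and 2. The part of GC content in these values was not tested.

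**Figure D5:**
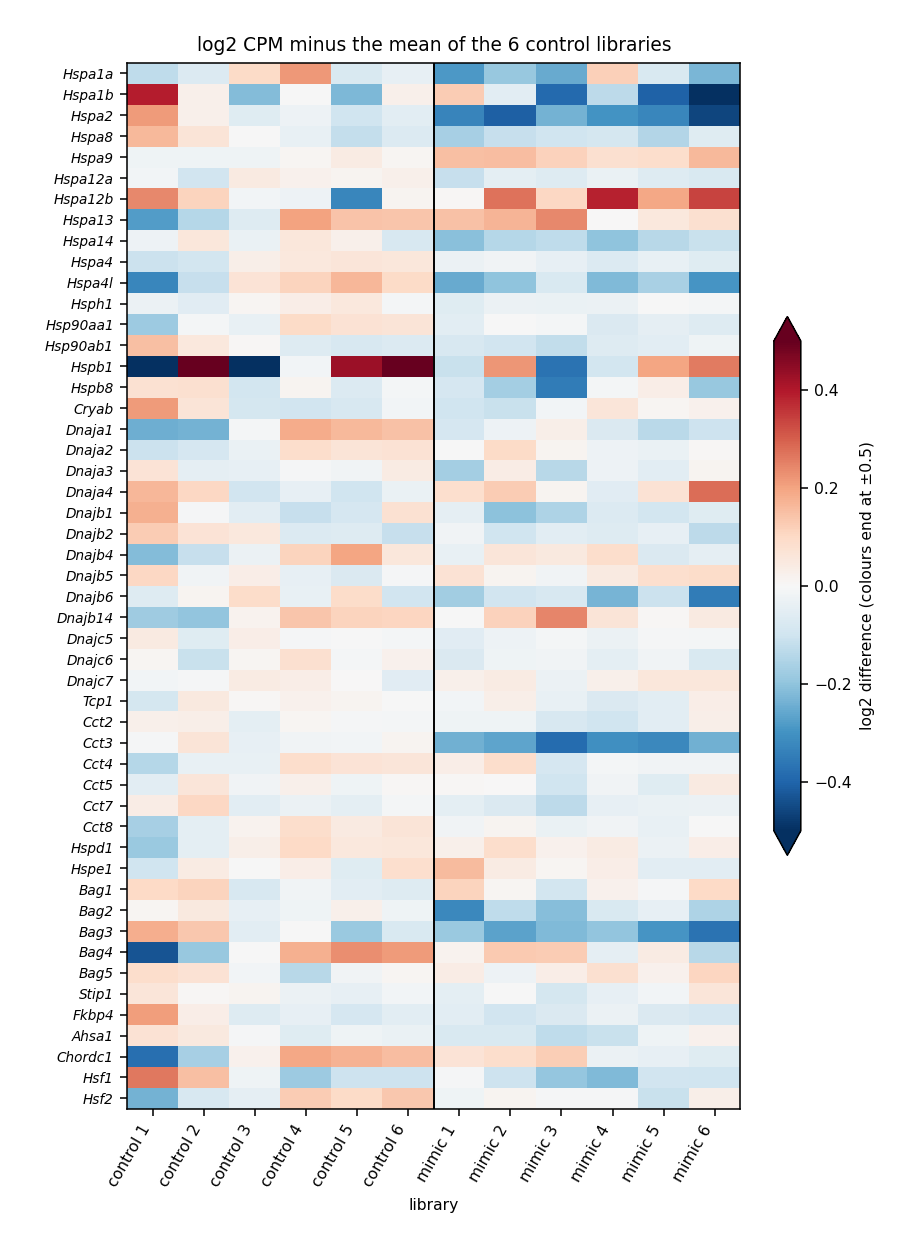
log2 CPM of each member in each library minus the mean of the 6 control libraries, with control to the left and mimic to the right of the black line. Red is higher and blue is lower, and the colours end at 0.5 on either side. Control replicate 1 holds many of the deepest control colours, and Hspa2 and Cct3 are blue in all 6 mimic libraries.

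Several chaperone genes have processed pseudogenes or near copies, which limits what short reads can tell about their level. Reads of 50 bases were sequenced, and in 11 members over 20% of all 50-base stretches of the longest coding transcript also occur in transcripts of other genes, while in 22 members none do. Hspa8, usually a very abundant neuronal chaperone, was at 38.5 to 46.8 CPM in control and 37.3 to 40.1 CPM in mimic, and 74.8% of its stretches are shared, most with Gm15459. This gene was singled out after its values were seen. Hspa1a and Hspa1b share 66.3% and 62.3%, mainly with each other, Hsp90aa1 58.5%, Hspb1 51.6%, and Hspd1 and Hspe1 44.8% each. Dnaja4 shares 51.9%, with Wdr61, a gene on the opposite strand whose exons overlap its own by 1581 bases, and so not with a copy. Levels of these members are therefore uncertain, and how reads with several matches were handled is not given in the sources used here. Among the members called under every alternative, the shared part was 0% for Hspa2 and Bag3, 2.13% for Cct3, 4.1% for Hspa9 and 15.6% for Hspa14. Exons of 19 members also overlap those of another gene, and whether reads were counted by strand is not stated.

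Seed sites of the mimic, that is stretches that pair with its bases 2 to 8, or with bases 2 to 7 and have an A after them, were sought in the longest annotated 3′ UTR of each gene. They were present in 15 of 50 members (30%), against 21.9% of the 15082 tested genes with such a UTR. The 15 members with a site had a median log2 fold change of -0.067 and the 35 without had -0.026, against -0.036 and 0.0013 over all tested genes with and without a site. Of the 7 members called lower, Hspa4l, Dnajb6 and Bag3 hold a site, and Hspa2, Hspa14, Cct3 and Bag2 hold none in this longest UTR. Cct3 is the exception when the 3′ UTR of any coding transcript is searched, where 1 site was found, which makes 16 members with a site. By the longest UTR, 3 of the 15 members with a site and 4 of the 35 without were called lower. Of those 3, Hspa4l and Dnajb6 were called in 10 and 8 of the 21 alternative fits, and Bag3 in all 21. Sites of the called members, and that of Tcp1, are shown with the match in capitals, because Hspa4l and Tcp1 are the 2 members with an 8-base site. All lie in 3′ UTR sequence of GENCODE M21 on GRCm38, which is mm10.
Hspa4l, first site, chr3:40789780-40789808, plus strand: tagagccaccaGCACTGAccctttcctag
Hspa4l, 8-base site, chr3:40790849-40790877, plus strand: acaatgtagtcTGCACTGAaaagagaata
Dnajb6, chr5:29786401-29786429, plus strand: tgtctgtaagtTGCACTGttactatgaaa
Bag3, chr7:128546425-128546453, plus strand: tttaagttgcaTGCACTGcgggacttgca
Tcp1, 8-base site, chr17:12924602-12924630, plus strand: ctgcttagtgtTGCACTGAtttaacaaga
Of the 2 members with an 8-base site, Hspa4l had a log2 fold change of -0.21 and Tcp1 of -0.019 (95% interval -0.089 to 0.05). Hspa4l is also 1 of 4 members with 2 sites, and the others, Hspa4, Dnajc5 and Dnajb14, had -0.043, -0.024 and 0.073. Over the 15 members with a site the log2 fold changes ran from -0.25 to 0.23. Hspa1a and Hspa1b each hold a match to the seed of the negative control as well as to that of the mimic.

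Heat shock factors bind inverted repeats of a short unit, and an element of 3 units was searched on both strands as GAANNTTCNNGAA or TTCNNGAANNTTC. RefSeq promoters on GRCm38.p6, from 250 bases before to 50 bases after the start site, were given for 40 of the 50 members. The element was found in 5 of these, Hspd1, Hspe1, Dnajb6, Hsph1 and Chordc1, and in 0.662% of all 27025 genes with a promoter. The shorter TTCNNGAA, which is part of the longer form, was found in 7 members and in 9.6% of all genes. The elements are shown with the matching bases in capitals.
Hspd1, shared with the divergent Hspe1, chr1:55088054-55088081, minus strand: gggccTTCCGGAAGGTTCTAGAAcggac
Dnajb6, chr5:29735845-29735871, plus strand: gctccgaGAATCTTCCGGAAcgctaga
Hsph1, chr5:149636281-149636307, minus strand: ctgcagaTTCTGGAAAGTTCtcctcag
Chordc1, chr9:18292261-18292287, plus strand: cgGAACGTTCGGGAAAATTCCTGAAgc
Of these 5 members Dnajb6 was called lower, and the others had log2 fold changes of -0.027 to 0.025 with all libraries. Of all tested genes 10.7% were called lower. Without control replicates 1 and 2 Chordc1 was called lower as well, at -0.11 (edgeR adjusted p = 0.0448). A match is a description of these letters and does not show that a factor binds there.

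Chaperone genes outside the list were compared by their counts. Among 70 other chaperones and co-chaperones, listed as cytosolic or mitochondrial, 69 were tested. Of these, 3 were higher and 4 lower (10.1% called against 22.2% of all tested genes, median log2 fold change -0.016). Among the called genes the largest changes were in Hspb6, a small heat shock protein, at -0.56, in Dnajb13, a J-protein of cilia and flagella, at -0.51, in Fkbp5, a steroid-inducible Hsp90 partner, at 0.32, and in Serpinh1 at 0.51, which stands in this list although its product folds collagen in the endoplasmic reticulum (edgeR adjusted p = 2.00e-05, 0.000861, 4.59e-05 and 4.98e-07). Among 19 chaperones of the endoplasmic reticulum 7 were higher and 3 lower (52.6% called against the same 22.2%, median 0.073). Here P4hb, a subunit of prolyl hydroxylase, was at 0.29, Pdia3, a disulfide isomerase, at -0.24, and the cofactors Sec63 and Dnajb11 at 0.19 each (edgeR adjusted p = 3.51e-06, 0.000529, 0.0114 and 0.00139). Besides Serpinh1, the list named cytosolic or mitochondrial holds Dnajb12 and Sil1, whose products also belong to the endoplasmic reticulum. Dnajb12 was called higher at 0.23 (edgeR adjusted p = 0.000556), and Sil1 was not called, at 0.023 (edgeR adjusted p = 0.727). The shares called in these lists therefore do not cleanly separate the compartments. The difference between these lists was not tested.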

How the data were processed

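Per the labels, libraries came from poly(A) RNA (TruSeq) and were read from a single end over 50 bases. The authors aligned the reads to mm10 with STAR 2.5.2b and counted them per gene with featureCounts (Subread 1.5.1), and FastQC 0.11.5 was used for quality control. The authors deposited these counts, not normalized, for 48709 genes in each of 12 samples, with 20018234 to 37149112 counts per sample. The authors also deposited a normalized signal, counts divided by 1 size factor per sample (0.673 to 1.26) for 18289 genes, used for 1 alternative.

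A gene was tested where 6 or more of the 12 samples held 5 or more counts. Tests used the quasi-likelihood test of edgeR 4.0.16 (R 4.3.3, TMM, robust), 6 mimic against 6 control samples without covariate, and p-values were adjusted by Benjamini-Hochberg over all 18847 tested genes. An adjusted p under 0.05 was called. The SE is the size of the log2 fold change over the square root of F. CPM uses TMM-scaled totals. The test was checked on simulated counts without library-specific shifts, so the check does not cover deviations such as those of control replicates 1 and 2. Alternatives were DESeq2 1.42.0, limma 3.58.1 on log2(signal + 1), other scalings and filters, a replicate block, and fits that left out single replicates or control replicates 1 and 2 together. Annotation was GENCODE M21 on GRCm38.

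Lists, members and alternatives were chosen with earlier results of these data known. Values are given in full for each called member and, per class, for the most abundant member per length and the one with the largest change. From other lists, up to 4 called genes were named. Genes outside this rule were named after their values were seen.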

Additional observations from a re-analysis of the deposited data

Results flagged for a closer look

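In each group of 6 libraries the highest and the lowest CPM of every member were set against the others by their gap to the nearest library as a share of the whole range (Dixon's test at its 95% critical value). Of 100 groups tested 2 were past it, and chance would give about 5. Hspa1b was at 7.57 CPM in control replicate 1, against 4.93 to 5.87 CPM in the other control libraries. Dnaja2 was at 199 CPM in mimic replicate 2, against 182 to 188 CPM in the other mimic libraries. Neither member was called in the comparison of mimic and control.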

How the results depend on the processing

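In all 21 alternative fits Hspa9 was the only member called higher, and Hspa2, Hspa14, Cct3 and Bag3 were called lower, with log2 fold changes of 0.12 to 0.13, -0.36 to -0.28, -0.17 to -0.14, -0.30 to -0.27 and -0.29 to -0.17. Hspa4l, Dnajb6 and Bag2 kept their sign and were called in 10, 8 and 9 of the 21. The number called lower was 7 with DESeq2, with filterByExpr and without robust estimation, 6 with RLE normalization, 5 with library totals alone and with the normalized table, and 4 without the filter. Of all tested genes, 4486 of 18847 were called in either direction with DESeq2, 4255 of 16784 with filterByExpr and 4181 of 18847 without robust estimation. It was 4182 of 18847 with RLE normalization, 4173 of 18847 with library totals alone, 4132 of 18289 with the normalized table and 3717 of 33540 without the filter. Without both shallow control libraries it was 5950 of 19002, and in the main fit 4182 of 18847. Of the J-protein genes 0 were called with RLE normalization, library totals alone, no filter or the normalized table, where Dnajb6 no longer passed. Of the Bag genes 1 was called with library totals alone or no filter, where Bag2 no longer passed. Without both shallow control libraries 13 members were lower, the called numbers were 6 of the Hsp70 and Hsp110, 1 of the Hsp90, 3 of the J-protein, 2 of the chaperonin, 1 of the Bag and 1 of the Hsp90 co-chaperone genes, and Chordc1 changed sign to -0.11. Hspa4l no longer passed without the filter or with the normalized table. Fits without 1 library each called 4 to 7 members lower, against 8.6% to 13.1% of all tested genes, and 0 to 1 J-protein and 1 to 2 Bag genes, and Hspa8 passed without control replicate 5 (edgeR adjusted p = 0.0399). In 47 of 1050 values, from 10 members, the sign of a log2 fold change changed with no call in either fit. The cause was not tested. Same-numbered replicates did not deviate together (correlations of -0.0385 to 0.0928, 1 of 12 samples closest to its own number). This gave no sign that the numbers pair the samples, but it cannot exclude a pairing. A fit with the replicate number as a block called 6 members lower, 1 higher and 1 Bag gene, where Bag2 no longer passed. Of all tested genes that fit called 3659 of 18847 in either direction. Counting 8-base sites alone left 2 members with a seed site, the 3′ UTR of any transcript gave 16, adding Cct3, and the 2-unit element was in 7 promoters. By coding transcript length 21 members were over 50 RPKM. Depth limited Hspb1 most, with a mean of 15.9 counts.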
